A study of Mus musculus with 4 samples.

Results

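Forkhead transcription factors other than the FoxO proteins were measured in mouse C2C12 muscle cells that had differentiated with or without GDF8 (myostatin). The genes were taken by name: every probe that is not a control, whose gene name in the scanner files is Fox, a subfamily letter and a number, with FoxO names left out. This gave 34 genes with 48 probes on 57 spots, of 27745 gene names, 41174 probes and 43379 spots. The genes belong to 16 subfamilies, named by the letter after Fox. Of the 34 genes, 21 were measured, meaning that at least 1 probe was well above background on all 4 arrays of GDF8 cells or on all 4 of untreated cells.

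C2C12 is an established mouse myoblast line whose cells stop dividing and fuse into myotubes when serum is lowered. The GDF8 cells received 20 nM recombinant mouse myostatin every 24 h through 6 days of differentiation, and the untreated cells differentiated for the same 6 days with nothing added. Both groups are the same unmodified line in horse serum, which the labels give as 2% in one place and 10% in another. Each of 4 two-colour Agilent arrays on 1 slide held 1 GDF8 RNA and 1 untreated RNA, labelled as biological replicates 1 to 4. GDF8 RNA was in Cy5 (red) on replicates 2 and 3 and in Cy3 (green) on replicates 1 and 4. The labels do not say how the cultures were kept apart, so the p-values measure the spread between these samples, which may be technical in part.

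Forkhead proteins share a winged-helix domain that binds DNA, and differ in the tissues and partners through which they act. FoxM1 drives genes of G2 and mitosis in dividing cells, FoxK1 is known from muscle progenitor cells, FoxH1 binds DNA together with Smad proteins below activin-like and Nodal receptors, and FoxJ1 switches on genes of motile cilia. Myostatin is a TGF-beta family ligand that signals through Smad2 and Smad3 and limits muscle growth.

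The muscle identity of the cells was checked on 9 markers, including Myod1, Myog and Des, and the 9 were well above background in all 8 channels. Of these, 2 fell in GDF8 cells: Mef2c, a muscle transcription factor, had a log2 ratio of GDF8 over untreated of -0.95 ± 0.11 (SE, n = 4 arrays; limma adjusted p = 0.014), and Ckm, muscle creatine kinase, had -0.93 ± 0.18 (limma adjusted p = 0.049). The call of Ckm held under 8 of 18 alternatives. In bulk RNA such as this, fewer cells of a type and less RNA per cell cannot be told apart. The summed muscle marker signal spanned 18.72 to 18.96 on the log2 scale in GDF8 cells and 18.73 to 19.07 in untreated cells, but 7 of the 9 markers were saturated in at least 1 channel. Pecam1, Tie1 and Emcn of the endothelial markers and Ptprc and Adgre1 of the blood cell markers were well above background on 0 arrays, while Kdr and Tek of the endothelial and Cd68 and Cd3e of the blood cell markers were so on all 4 arrays of both groups. Spots saturated in red made up 9.20% to 12.1% of an array, and spots saturated in green 0.745% to 5.49%.

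A ratio, unless a level is named, is the log2 of GDF8 divided by untreated signal, so that a positive one is higher in GDF8 cells. The ± after a ratio is the standard error of the limma fit over 4 arrays, and adjusted p-values are limma's, by Benjamini-Hochberg over 17444 features with a threshold of 0.05. Among the 21 measured forkhead genes, 2 rose in GDF8 cells, Foxd1 and Foxm1, and 0 fell. Over all features 150 rose, a share of 0.860%, and 402 fell, a share of 2.30%, which together make 3.16%. Both calls held without replicate 1 (limma adjusted p = 0.031 for Foxd1 and 0.038 for Foxm1) and without replicate 3 (0.029 for Foxd1 and 0.042 for Foxm1). Neither was made without replicate 2 (0.063 for Foxd1 and 0.098 for Foxm1) or without replicate 4 (0.051 for Foxd1 and 0.060 for Foxm1), while the ratios stayed between 0.76 and 0.81 for Foxd1 and between 0.65 and 0.71 for Foxm1.

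**Figure D1:**
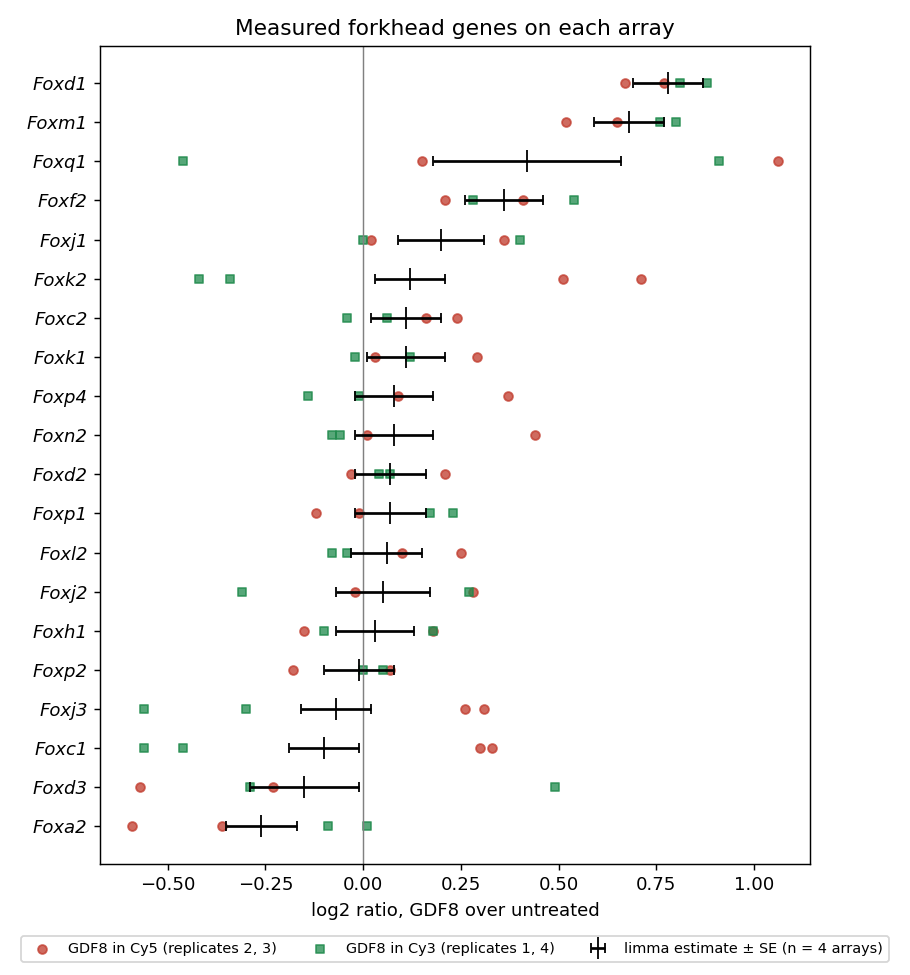
Log2 ratio of GDF8 over untreated on each of 4 arrays (points, coloured by the dye of the GDF8 RNA) and the limma estimate ± SE (black) for 20 of the 21 measured forkhead genes. Foxd1 and Foxm1 lie between 0.52 and 0.88 on every array, while Foxk2, Foxj3 and Foxc1 split by dye.

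Foxd1, which marks stromal progenitors of the developing kidney, had 2 probes. On its brighter probe the normalised log2 intensity was 10.47, 10.38, 9.83 and 9.99 in GDF8 cells of replicates 1 to 4, against 9.59, 9.61, 9.17 and 9.18 in untreated cells. The groups did not overlap, and the GDF8 channel was the higher on each array. The means were 10.17 ± 0.30 in GDF8 cells and 9.39 ± 0.25 in untreated cells (SD, n = 4 each). The ratio was 0.78 ± 0.09, or 1.72-fold, with a 95% interval of 1.49-fold to 1.99-fold (limma adjusted p = 0.012). On the 4 arrays it was 0.88, 0.77, 0.67 and 0.81.

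The dimmer Foxd1 probe gave 9.52, 9.67, 9.43 and 8.73 in GDF8 cells, against 8.49, 8.57, 8.94 and 8.04 in untreated cells, again as log2 intensity. Here the groups overlapped, since GDF8 cells of replicate 4 lay below untreated cells of replicate 3, but each array on its own was higher in GDF8. Its ratio of 0.83 ± 0.13 passed the test over the 26577 probes taken singly (limma adjusted p = 0.022). The arrays read 1.03, 1.11, 0.49 and 0.69 on that probe. Both probes were well above background in all 8 channels and saturated in none.

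The 250 bases before the start of Foxd1 are shown because Foxd1 had the smallest p of the forkhead genes. The sequence is from RefSeq on build GRCm38.p6, at chr13:98353995-98354244 on the plus strand, printed 5′ to 3′, and the capitals mark a CCAAT box 192 bases before the start.
Foxd1: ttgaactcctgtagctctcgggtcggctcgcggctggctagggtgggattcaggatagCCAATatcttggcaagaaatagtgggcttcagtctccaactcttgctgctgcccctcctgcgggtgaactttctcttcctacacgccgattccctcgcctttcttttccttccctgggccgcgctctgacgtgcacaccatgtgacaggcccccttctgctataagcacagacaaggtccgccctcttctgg

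Foxm1, the proliferation-associated forkhead factor, had 1 probe. Its normalised log2 intensity was 12.30, 12.50, 12.36 and 12.61 in GDF8 cells of replicates 1 to 4, against 11.54, 11.85, 11.84 and 11.81 in untreated cells. The lowest GDF8 value was above the highest untreated value. The means were 12.44 ± 0.14 in GDF8 cells and 11.76 ± 0.15 in untreated cells (SD, n = 4 each). Foxm1 rose 1.60-fold, a ratio of 0.68 ± 0.09 with a 95% interval of 1.39-fold to 1.86-fold (limma adjusted p = 0.015). The arrays read 0.76, 0.65, 0.52 and 0.80. The probe was well above background in all 8 channels and saturated in none.

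**Figure D2:**
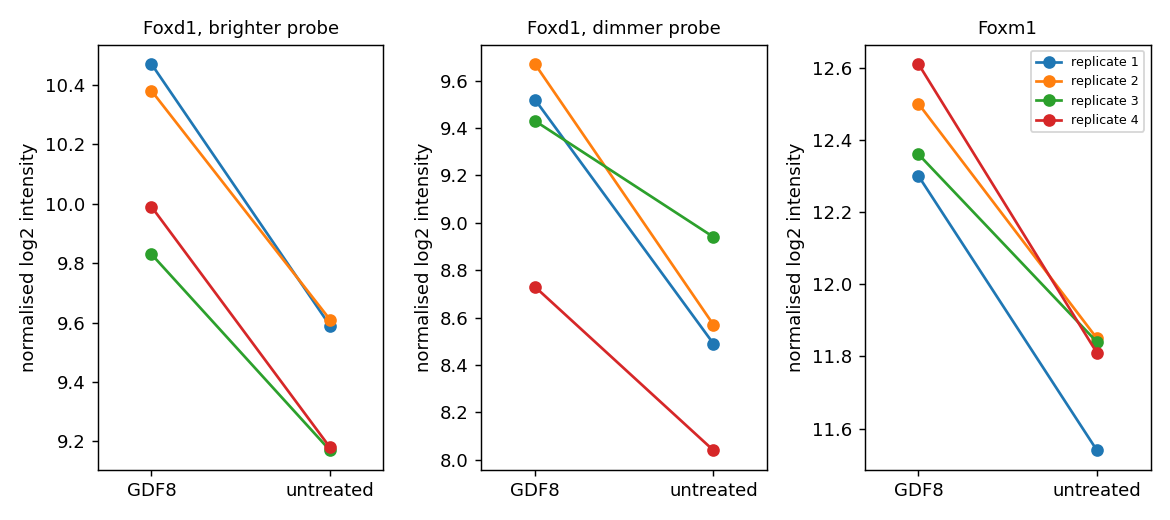
Normalised log2 intensity in GDF8 cells (left) and untreated cells (right) for both Foxd1 probes and the Foxm1 probe, with a line joining the channels of each array. Each axis is its own and does not start at 0. Each of the 12 lines falls towards untreated cells, and only the dimmer Foxd1 probe has groups that overlap.

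FoxM1 acts on genes that carry a cell through G2 and mitosis, and a list of 20 such target genes was read from the same fit. Of the 20, 11 rose in GDF8 cells and 0 fell, against shares of 0.860% and 2.30% over all features. The list was drawn up with earlier results of these data known, so its direction is not independent evidence. The median ratio of the 20 genes was 0.71 against 0.01 over all features, and 15 of the 20 were positive on all 4 arrays. The count of 11 fell to 3 without replicate 2 and to 2 without replicate 4.

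The cyclins Ccnb1 (0.95 ± 0.09), Ccna2 (0.81 ± 0.11) and Ccnb2 (0.73 ± 0.10), which activate the mitotic kinase Cdk1, were among those that rose. So were the mitotic kinases Nek2 (0.93 ± 0.10), Aurkb (0.80 ± 0.10), Bub1b (0.78 ± 0.09), Aurka (0.71 ± 0.12) and Plk1 (0.68 ± 0.12). The centromere proteins Cenpa (0.93 ± 0.09) and Cenpf (0.72 ± 0.10) and the topoisomerase Top2a (0.75 ± 0.12) completed the 11. Limma adjusted p-values of these genes ran from 0.0083 for Ccnb1 to 0.043 for Plk1. Under the alternatives the 11 calls held least often for Plk1 (9 of 18) and Aurka (11 of 17) and most often for Ccnb1 (18 of 18). Hmmr (0.82 ± 0.16, limma adjusted p = 0.057) and Tpx2 (0.68 ± 0.14, limma adjusted p = 0.058), both spindle proteins, had ratios of like size and did not pass. The other 7 had Cdc20 at 0.52, Cenpe at 0.39, Kif20a at 0.22, Skp2 at 0.14, Birc5 at 0.11, Cks1b at 0.08 and Cdc25b at 0.05. Of those 7, all but Skp2 were saturated in at least 1 channel. Of the 11 that rose, Ccnb2 and Aurka were saturated in 1 GDF8 channel each.

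Promoter windows of 250 bases before to 50 bases after the start were held for 16 of the 20 target genes and for 22 of the 34 forkhead genes, 12 of them measured, in RefSeq tables on build GRCm38.p6. Only the 250 bases before the start were searched, on both strands, and the 50 bases after it were not. The letters were CCAAT, the CCAAT box bound by NF-Y, and TTTGAA and TTCGAA. The last pair are forms of the cell cycle homology region (CHR) through which the MuvB complex acts. CCAAT was found in 15 of the 16 target genes (93.8%), in 13 of the 22 forkhead genes and in 37.5% of all 27025 genes with a window. TTTGAA was found in 5 of the 16 target genes (31.2%), in 2 forkhead genes and in 18.3% of all genes. TTCGAA was found in 2 target genes, Bub1b and Top2a, in 0 forkhead genes and in 1.55% of all genes. The match of letters is a description and shows no binding. The median GC content of these 250 bases was 62.8% in the forkhead windows against 52.4% over all windows.

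The windows of Ccnb1 and Bub1b are shown as target genes that rose, one with CCAAT alone and one with a CHR form as well. Both are 250 bases before the start, 5′ to 3′, from RefSeq on GRCm38.p6: Ccnb1 at chr13:100786487-100786736 on the minus strand and Bub1b at chr2:118597961-118598210 on the plus strand. Capitals mark CCAAT, its reverse complement ATTGG, and TTCGAA.
Ccnb1: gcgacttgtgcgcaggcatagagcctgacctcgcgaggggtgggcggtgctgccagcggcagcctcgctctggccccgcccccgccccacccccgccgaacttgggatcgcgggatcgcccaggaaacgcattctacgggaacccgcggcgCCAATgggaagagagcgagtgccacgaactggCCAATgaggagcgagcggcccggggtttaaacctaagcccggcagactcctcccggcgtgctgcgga
Bub1b: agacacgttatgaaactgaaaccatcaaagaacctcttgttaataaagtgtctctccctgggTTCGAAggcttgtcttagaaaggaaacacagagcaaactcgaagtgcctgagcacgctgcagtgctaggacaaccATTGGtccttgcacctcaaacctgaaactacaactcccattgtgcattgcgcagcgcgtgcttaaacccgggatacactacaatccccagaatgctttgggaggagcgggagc
In the first, 2 CCAAT boxes lie 99 and 67 bases before the start, and in the second a TTCGAA lies 188 bases and a reverse CCAAT 113 bases before it.

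Other letters were rare in these windows. The forkhead core TGTTTAC occurred in Foxa1 alone among the 22 forkhead genes, in 0 of the 16 target genes and in 3.54% of all genes. The E2F letters TTTGGCGC and TTTCCCGC occurred in 0.485% and 1.03% of all genes, the Smad element GTCTAGAC in 0.200% and the FoxH1 letters AATCCACA in 0.862%. Each of these last 4 was found in 0 of the 22 forkhead genes and 0 of the 16 target genes.

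The proteins through which FoxM1 reaches CHR promoters include B-Myb and the MuvB core. Of 11 such genes and pocket proteins, 0 rose and 0 fell, with a median ratio of 0.03. Mybl2, which encodes B-Myb, stood at 0.33, 0.47, 0.40 and 0.41 on the 4 arrays, with a ratio of 0.40 ± 0.09 (limma adjusted p = 0.074). It was the list's gene with a positive ratio on all 4 arrays, a pattern that 6.82% of all features had. Lin9 of the MuvB core (0.15 ± 0.09), Tfdp1, the E2F dimer partner (-0.14 ± 0.09), and Rbl2, the pocket protein p130 (0.08 ± 0.09), did not pass. Tfdp1 was saturated in 3 of 8 channels and split by dye, at -0.54, 0.27, 0.25 and -0.53, and its ratio was 0.14 on a probe that was never saturated, so it has no settled direction.

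Foxf2 came next after Foxm1 by p. It is a factor of gut and palate mesenchyme. Its normalised log2 intensity was 13.65, 14.13, 14.11 and 13.99 in GDF8 cells, against 13.38, 13.72, 13.91 and 13.45 in untreated cells. The groups overlapped, while each array was higher in GDF8. The arrays read 0.28, 0.41, 0.21 and 0.54, for a ratio of 0.36 ± 0.10, which missed the threshold (limma adjusted p = 0.15). The 95% interval of 1.09-fold to 1.51-fold is that of the gene taken alone, with no adjustment.

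Foxf2 lies between Foxq1 and Foxc1 in the RefSeq gene order, with no protein-coding gene between neighbours, and the 3 genes had ratios of 0.42 (Foxq1), 0.36 (Foxf2) and -0.10 (Foxc1), which were not tested against each other. Foxq1, known from hair follicle development, had 14.05, 14.62, 14.46 and 15.54 as log2 intensity in GDF8 cells, against 14.50, 14.46, 13.40 and 14.63 in untreated cells. Replicate 1 was lower in GDF8 and the others higher. The ratios of -0.46, 0.15, 1.06 and 0.91 gave 0.42 ± 0.24, the largest standard error of the 21 genes (limma adjusted p = 0.64). Leaving out single arrays moved it between 0.07 and 0.76.

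Foxc1 and Foxc2 are factors of mesenchyme, vessels and the eye. Foxc1 had 15.07, 15.60, 15.64 and 15.22 as log2 intensity in GDF8 cells, against 15.53, 15.30, 15.31 and 15.78 in untreated cells. On each array the red channel was the higher, whichever RNA it held, and the red channel was saturated each time. Its GDF8 term was -0.10 ± 0.09 and its dye term, red over green, 0.41 ± 0.09. Foxc2, never saturated, had a ratio of 0.11 ± 0.09 and a dye term of 0.09.

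The same split by dye was seen in Foxk2 and Foxj3. Of the 4 measured forkhead genes with a saturated channel (Foxc1, Foxk2, Foxj3 and Foxp1), 3 had a dye term above 0.3 in size, against 0 of the 17 that were never saturated. Over all features the share above 0.3 was 47.6% of the 4240 with a saturated channel and 10.3% of the 13204 without. The calls were also unequal: 0.495% of features with a saturated channel and 4.02% of those without passed the test, and both forkhead calls were of genes without one. Whether saturation set these dye terms was not tested.

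**Figure D3:**
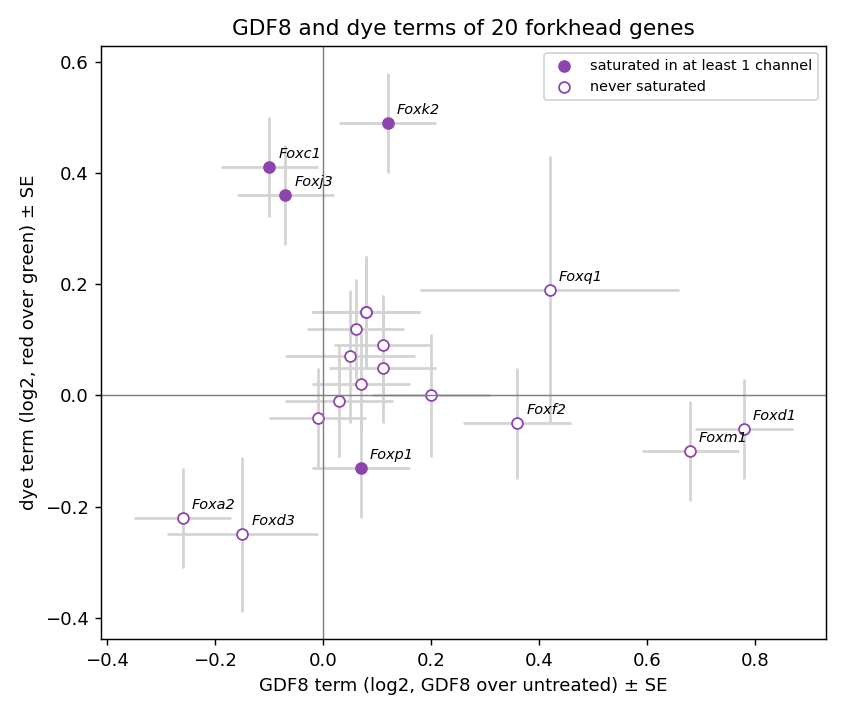
GDF8 term (horizontal, log2 GDF8 over untreated) and dye term (vertical, log2 red over green) of 20 of the 21 measured forkhead genes, each ± SE, with filled points for genes saturated in at least 1 channel. Foxk2, Foxc1 and Foxj3 have dye terms of 0.49, 0.41 and 0.36, while Foxd1 and Foxm1 have -0.06 and -0.10.

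The FoxK factors bind a Sin3 corepressor complex and the BAP1 deubiquitinase. Foxk1, the myocyte nuclear factor of muscle progenitors, had a ratio of 0.11 ± 0.10 and spanned 0.04 to 0.13 over 3 probes. Foxk2 had 4 probes. The brightest, partly saturated, read -0.34, 0.51, 0.71 and -0.42 for a ratio of 0.12 ± 0.09, and the probes spanned 0.12 to 0.25. The others, never saturated, had 0.25, 0.24 and 0.19 and did not pass. Of 12 corepressor and BAP1 partners, 0 rose and 0 fell, with a median of -0.04 and 5 of the 12 saturated in a channel. Sap30, a subunit of the Sin3 complex, had -0.30 ± 0.09 (limma adjusted p = 0.22), Asxl1 had -0.20 ± 0.10 and Asxl2 had -0.09 ± 0.09, the last pair being BAP1 cofactors. Sin3b ranked next by p, but it was saturated in all 8 channels and no ratio is given.

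Foxh1, the Smad partner, had a ratio of 0.03 ± 0.10, with arrays at -0.10, -0.15, 0.18 and 0.18. Its 95% interval, 0.858-fold to 1.21-fold, is that of the gene taken alone. Of its 10 partners and targets 6 were measured, of which 0 rose and 0 fell, with a median of 0.00. Among the 6, Nodal (-0.11 ± 0.09), the corepressor Drap1 (0.10 ± 0.13) and Smad3 (-0.05 ± 0.09) did not pass. Smad3 also split by dye, at -0.75, 0.62, 0.66 and -0.74. Gsc, Lefty1, Lefty2 and Mixl1, targets in the early embryo, were not measured.

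The FoxP proteins repress transcription with CtBP and NuRD complexes. Foxp1 had a ratio of 0.07 ± 0.09 on a probe saturated in 5 of 8 channels, and its 3 probes spanned 0.07 to 0.16. Foxp4 had 0.08 ± 0.10 and Foxp2, known from speech and motor circuits, -0.01 ± 0.09. Foxp3, the factor of regulatory T cells, was well above background on 0 GDF8 arrays and 1 untreated array, there in the red channel. Of 8 FoxP partners 7 were measured, 0 rose and 0 fell, with a median of 0.04. Mta1 (0.25 ± 0.10, limma adjusted p = 0.37), Gatad2a (0.09 ± 0.09) and Ctbp1 (-0.10 ± 0.12) had the smallest p-values, followed by Ctbp2 at 0.05 ± 0.09. Of the 7, 4 were saturated in a channel, Ctbp1 in 5 of 8, and on probes never saturated the ratio was 0.27 for Gatad2a and 0.24 for Ctbp2.

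**Figure D4:**
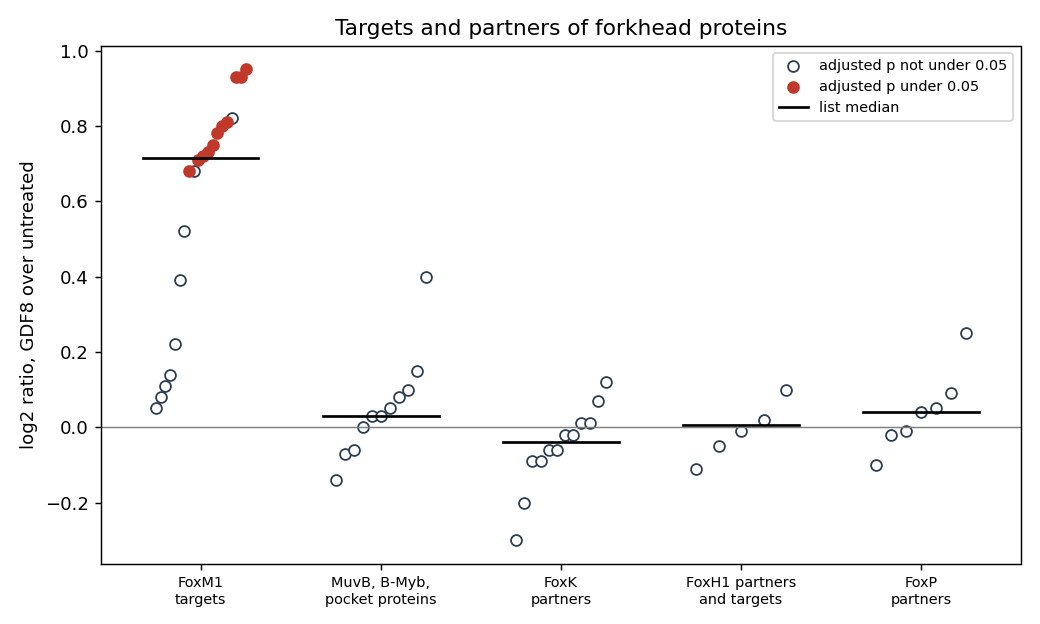
Log2 ratio of GDF8 over untreated for measured genes of 5 lists tied to forkhead proteins (1 gene not shown), with filled points for adjusted p under 0.05 and a bar at each median. The FoxM1 targets have a median of 0.71 with 11 of 20 filled, while the other medians lie between -0.04 and 0.04 with 0 filled.

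Foxj1, the cilia factor, and Foxd2, of kidney and facial mesenchyme, passed the filter only through untreated cells, since GDF8 cells of replicate 1 were not well above background for either. On that array the GDF8 channel was green and the untreated channel red. The normalised intensity of both genes was nonetheless the higher in GDF8 there, so the filter does not show lower signal in GDF8 cells. Foxj1 had log2 intensities of 7.86, 8.10, 8.13 and 7.76 in GDF8 cells, against 7.46, 7.74, 8.11 and 7.75 in untreated cells. These overlapped. The arrays read 0.40, 0.36, 0.02 and 0.00, for a ratio of 0.20 ± 0.11 (limma adjusted p = 0.63). Of 9 cilia genes that FoxJ1 is known to switch on, 5 were measured, of which 0 rose and 0 fell with a median of -0.04, and Rsph1 was well above background on 0 arrays.

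Foxd2 had log2 intensities of 7.76, 7.97, 8.11 and 7.87 in GDF8 cells, against 7.69, 7.99, 7.91 and 7.83 in untreated cells. Its ratio was 0.07 ± 0.09, with groups that overlapped. Foxd3, a neural crest and stem cell factor, had 10.00, 7.45, 7.59 and 7.95 in GDF8 cells, against 10.28, 8.02, 7.82 and 7.46 in untreated cells. Both channels of replicate 1 stood apart from the other arrays, and the ratio of -0.15 ± 0.14 ranged from -0.34 to 0.05 when single arrays were left out, so its sign was not fixed. Of the 3 measured FoxD genes Foxd1 rose, and the differences between the 3 were not tested.

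Foxa2, a pioneer factor of endoderm and liver, had the lowest ratio of the 21, at -0.26 ± 0.09, which did not pass (limma adjusted p = 0.31). Its normalised log2 intensity was 11.55, 11.38, 11.30 and 11.51 in GDF8 cells, against 11.54, 11.97, 11.66 and 11.60 in untreated cells. The probe was printed on 10 spots of each array, which shows how much of the spread lies within an array. The spots averaged 0.01, -0.59, -0.36 and -0.09 on replicates 1 to 4. The SD over the 10 spots was 0.02 to 0.04 on each array, while the SD over the 4 array means was 0.27. The lower means, -0.59 and -0.36, were those of the arrays with GDF8 in Cy5, and the dye term was -0.22 ± 0.09. The SD of 0.27 therefore takes in a difference by dye as well as the spread between replicates.

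Foxj2, Foxj3, Foxn2 and Foxl2 had small ratios that did not pass. Foxj2 had 0.05 ± 0.12. Foxj3, which in mouse muscle is known to act on Mef2c, had -0.07 ± 0.09 with a dye term of 0.36, and its 3 probes differed in sign, from -0.07 to 0.17. The negative probe was saturated in 2 GDF8 and 2 untreated channels. Its other probes, never saturated, had 0.17 and 0.05, so Foxj3 has no settled direction. Foxn2 had 0.08 ± 0.10, on the 1 of its 3 probes that passed the filter, and Foxl2 of the ovary had 0.06 ± 0.09. No forkhead gene was negative on all 4 arrays, a pattern that 8.24% of all features had.

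Across the 21 measured genes the median ratio was 0.07 against 0.01 over all features, and 15 were above 0 against 52.2% of all features. The middle of the distribution ran from -0.01 to 0.12 between quartiles, against -0.08 to 0.09 over all features. By array the forkhead median was -0.04, 0.09, 0.25 and 0.05, so that replicate 3 stood highest and replicate 1 was below 0. The genes positive on all 4 arrays were Foxd1, Foxm1, Foxf2 and Foxj1, 4 of 21 against 6.82% of all features. Foxj1, the dimmest of the 21, counts among them with a ratio that rounds to 0.00 on replicate 4. At an unadjusted p under 0.05 there were 4, Foxd1, Foxm1, Foxf2 and Foxa2, against 12.5% of all features. Standard errors of the 21 genes ran from 0.09 to 0.24. The narrowest 95% interval of a gene taken alone reached 0.21 to either side on the log2 scale. That width is not adjusted over all features, and the adjusted threshold was stricter, since Foxf2 at 0.36 did not pass. Differences above 0.21 could therefore also be missed with 4 arrays.

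The 13 forkhead genes that were not measured had at most 3 arrays well above background in either group. Foxb1, Foxe1 and Foxf1 had 0 arrays in both groups. Foxe3 had 3 arrays in GDF8 cells and 3 in untreated cells, and Foxa1 and Foxa3 had 2 in each. Foxd4 had 2 arrays in GDF8 cells and 0 in untreated cells, and Foxb2 and Foxi1 had 1 array in GDF8 cells and 0 in untreated cells. Foxi2 had 1 array in GDF8 cells and 2 in untreated cells, Foxn1 had 1 in each, and Foxn4 and Foxp3 had 0 in GDF8 cells and 1 in untreated cells. For Foxd4, Foxb2, Foxi1, Foxi2, Foxn1, Foxn4 and Foxp3, each channel well above background was red. Spots well above background made up 71.8% to 78.8% of an array in red and 63.3% to 71.0% in green. These counts are therefore not a comparison of GDF8 with untreated cells. These genes have no ratio here, and a probe that is not well above background does not show that its gene is silent.

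**Figure D5:**
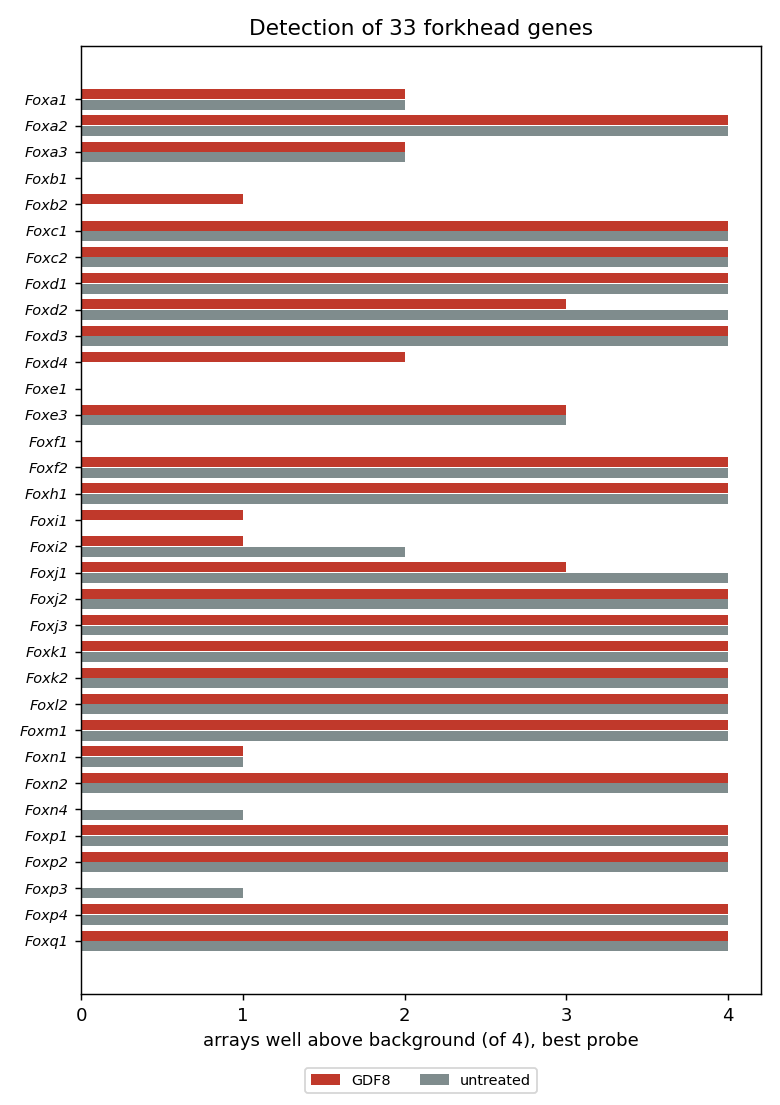
Number of arrays, out of 4, on which the best probe of each of 33 of the 34 forkhead genes was well above background in GDF8 cells (upper bar) and untreated cells (lower bar). Foxb1, Foxe1 and Foxf1 are at 0 in both groups, and 18 of those shown are at 4 in both. Red channels were more often well above background than green ones, so a difference between bars can follow the dye.

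Markers of other cell types were read beside these results. The summed signal of 6 epithelial markers spanned 13.23 to 13.62 in GDF8 cells and 12.64 to 12.92 in untreated cells, without overlap on the log2 scale. That of 6 nerve and glia markers spanned 14.42 to 14.92 in GDF8 cells and 14.14 to 14.33 in untreated cells, also without overlap. These sums add the intensities of all markers, measured or not, so 1 bright marker can set them. The part of each marker was not worked out. Of the epithelial markers, Krt14, a keratin, rose (0.72 ± 0.12, limma adjusted p = 0.030). The keratins Krt8 (0.12 ± 0.09) and Krt5 (0.02 ± 0.09) and Cdh1 (-0.29 ± 0.10) did not pass. Epcam was well above background on 1 GDF8 array and 0 untreated arrays, and Krt18 on 2 and 3, so neither was measured. Tubb3, a neuronal tubulin, had 0.56 ± 0.12 (limma adjusted p = 0.070). Lpl, an adipocyte lipase, fell (-0.71 ± 0.11, limma adjusted p = 0.027), while Cebpa (0.14 ± 0.10), Pparg (0.09 ± 0.09) and Fabp4 (-0.06 ± 0.10) did not pass and Adipoq and Plin1 were not measured. Of the 5 fibroblast markers measured 0 passed, and the summed signal spanned 17.83 to 18.07 in GDF8 cells and 17.74 to 18.09 in untreated cells, but 4 of the 5 were saturated in at least 1 channel. The part of these markers in the forkhead ratios was not tested.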

How the data were processed

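Agilent Feature Extraction 9.1.1.1 wrote the 4 deposited scanner files, which hold intensity per spot and channel, flags for saturation, outliers and signal well above background, and, per the file headers, the red to green ratio as log10. Values in the authors' deposited table are log2 ratios, which equalled the processed log2 ratio turned to GDF8 over untreated in 100% of 40929 single-spot probes at a tolerance of 0.001. That table, used as an alternative only, is not centred: its medians are 0.14, -0.09, -0.11 and 0.09 for replicates 1 to 4.

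Limma 3.58.1 (R 4.3.3) corrected the mean signals for background (normexp, offset 50) and normalised each array by loess, giving control spots a weight of 0. Outlier spots were left out and spots of a probe averaged. No forkhead value was missing. A probe entered if well above background on all 4 arrays of either group; 26577 passed, and the brightest stood for a gene, giving 17444 features. The fit had a GDF8 term and a dye term. Since 4 arrays allow an exact two-sided sign-change p of 0.125 at the smallest, calls of single genes depend on limma's pooling of variance between features. The fit was tested on simulated data. Alternatives covered background, normalisation, the probe filter and choice, the dye term, pairing, the methods' test, the deposited table and each array left out.

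Names came from RefSeq gene names (GRCm38.p6). Measured forkhead genes are named, except for a result that is left out. Full values are given for Foxd1, Foxm1, genes called in any fit, genes of 1 sign on all arrays with an unadjusted p under 0.05, and genes detected in full in 1 group; of each list, the genes past the threshold or up to 4 with the smallest p are given. Full values of Foxq1, Foxc1, Foxd3 and Foxa2 were added after their values were seen. The genes and lists were chosen with earlier results of these data known. Array precision is limited by their number.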

Additional observations from a re-analysis of the deposited data

Results flagged for a closer look

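Of 66 sets of 4 array values (single genes and the medians of the forkhead genes and the lists) searched for an array far from the other 3, 2 were picked out, and chance picks about 1 group in 20. Foxn2 read 0.44 on replicate 3, against -0.08 to 0.01 on the other arrays. Drap1, the FoxH1 corepressor, read -0.46 on replicate 2, against 0.24 to 0.35 on the other arrays. Neither gene passed the test with all 4 arrays.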

How the results depend on the processing

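Each count was recomputed under 18 alternatives. Both forkhead calls held in 14. These 14 are not separate tests. Normalisation between arrays left every ratio as it was, and changes of probe filter or choice kept the same Foxd1 and Foxm1 probes. The deposited table holds the processed signals again, not centred. With unpaired single channels the count was 1, Foxm1, and Foxd1 had a limma adjusted p of 0.10. With the methods' t-test after Benjamini-Hochberg adjustment it was 0, and leaving out single arrays gave 0 to 2. The count of forkhead genes that fell was 0 throughout. The ratio of Foxd1 ranged from 0.68 to 0.89 and that of Foxm1 from 0.65 to 0.72. Of 339 values of uncalled forkhead genes under the alternatives, 335 moved by less than the SD over arrays and 4 by more, Foxj1 and Foxd2 with processed signals and with the deposited table. Many of the 335 could not have moved by more, so the count does not measure stability. Ratios stay the same by construction without the dye term, with unpaired channels, with either t-test, or after normalisation between arrays. They also stay the same where a filter keeps the same probe. Leaving out 1 of 4 arrays always shifts a ratio by less than that SD. Uncalled genes near 0 changed sign, up to 3 of 19 in a setting.

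The 11 FoxM1 targets, a count added after seeing the data, became 2 with the methods' t-test after Benjamini-Hochberg adjustment and 2 to 11 when single arrays were left out. The 150 features higher became 79 with processed signals, 66 without the dye term, 58 with unpaired single channels, 69 and 24 with the methods' t-test at its own thresholds and after Benjamini-Hochberg adjustment, and 8 to 107 when single arrays were left out. The 402 lower became 265 with unpaired single channels, 88 with the adjusted t-test and 76 to 322 when single arrays were left out. Saturated and dim probes limit what ratios could show. The reported fit pairs the RNAs by array, and no other pairing could be tried, since the 4 arrays form 1 group.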
